A study of Mus musculus with 8 samples.

Results

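The genes described here move iron into, within and out of the cell: 10 members named by their role in iron uptake, storage, export and its regulation, among 18194 genes with a probe set of their own on the array. All probe sets that the array annotation pairs with exactly 1 member symbol were taken, which gave 30 of 45101 probe sets for 9 of the 10 genes. Trf, the gene of the iron carrier transferrin, is read only by a probe set shared with Srprb and has no value of its own. RNA came from quadriceps muscle of adult male C57Bl/10 mice, with 4 arrays per group. The hypoxia mice spent 2 weeks in a closed chamber in which oxygen was lowered bit by bit, from 21% to 8% within 1 week, and then held at 8% for 7 days. The control mice stayed under room conditions for 2 weeks, and nothing says that they were kept in a chamber, so low oxygen and the chamber cannot be told apart. The labels do not say whether each RNA sample was a separate animal, so p-values measure only the spread between these samples.

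Cells take up iron mostly as transferrin bound to the transferrin receptor, which is carried into endosomes, where the iron is reduced and pumped into the cytosol. Iron that is not used is stored in ferritin, and ferroportin is the only known exporter of iron, helped by copper oxidases. The iron regulatory proteins bind stem-loops in messenger RNAs when cytosolic iron is low. They stabilise the transcript of the transferrin receptor and block translation of ferritin and ferroportin, so an array, which measures RNA, reads the first of these actions more directly than the second. Skeletal muscle holds much of its iron in myoglobin and in mitochondria, and low oxygen is known to draw body iron towards red cell production.

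After hypoxia the transcripts of the transferrin receptor and of ferroportin were both lower, and those of ferritin heavy chain and ceruloplasmin did not pass the test. Tfrc, the transferrin receptor, fell 4.22-fold on its brightest probe set, and Slc40a1, the exporter ferroportin, fell 2.34-fold and 2.55-fold on its 2 probe sets. Of the 26 member probe sets bright enough to be tested, 6 fell and 0 rose by limma at an adjusted p of 0.05. The 6 were 3 of Tfrc, 2 of Slc40a1 and 1 of Steap3. At an unadjusted p of 0.05 the count was 10 lower and 1 higher, where 22.2% of all probe sets tested were lower and 17% higher. Across all 27023 probe sets tested, 28.8% passed, with 16.4% lower and 12.5% higher, so the 6 of 26 members are near the background and the members are read one by one. The median change of the tested member probe sets was -0.43 on the log2 scale, against -0.04 for all probe sets. Several of these sets read the same gene. By the brightest probe set of each gene the median was -0.24 for the 9 members, against -0.04 for all genes. On that measure 2 of 9 members fell, where 17.8% of all genes were lower. Changes are hypoxia minus control in log2(signal + 16), with standard errors (SE) from limma. The constant understates the change of dim probe sets.

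**Figure D1:**
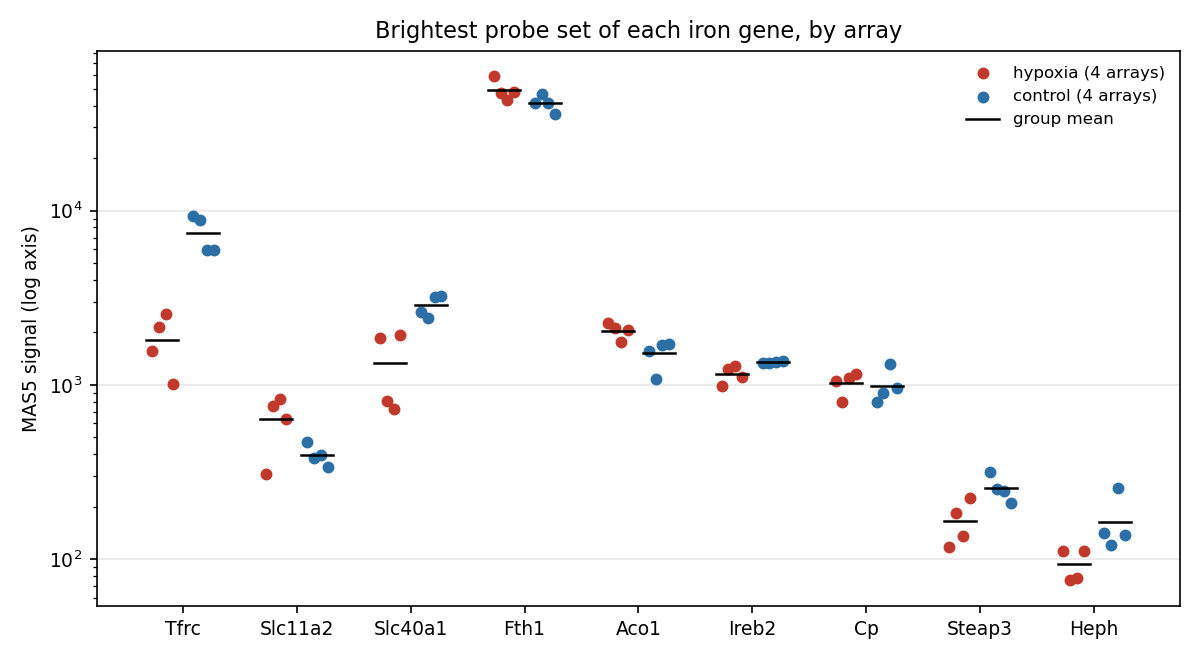
MAS5 signal (log axis) of the brightest probe set of each of the 9 iron genes, with a point for each of the 4 hypoxia arrays (left, red) and 4 control arrays (right, blue) and a bar at the group mean. For Tfrc and Slc40a1 all hypoxia points lie below all control points, and the Fth1 points of the groups overlap.

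Array quality bears on these values. Quality probe sets for Gapdh compare the 3' end with the 5' end, and their ratio rises where RNA is broken. It stood at 3.44 on array 1 of hypoxia, at 0.801 to 0.874 on hypoxia 2 to 4, and at 0.776 to 0.807 on the control arrays. For beta-actin it was 1.40 to 2.53 in hypoxia and 1.09 to 1.25 in control, so it was higher in every hypoxia array. The highest signal on an array was 42965.7 to 63465.7 in hypoxia, below the 63939.2 to 75518.4 of control. Muscle identity was clear in both groups: the summed signal of 7 muscle fibre markers was 218500 to 280200 in hypoxia and 320100 to 386800 in control. Of these markers 6 fell, but after quantile normalization only 1 did. Results that rest on hypoxia 1 are given with and without it.

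Uptake begins with Tfrc, the receptor that brings transferrin into the cell. On its brightest probe set, 1452661_at, the signals were 1565.3, 2141.2, 2561.3 and 1010.3 in hypoxia 1 to 4, against 9272.1, 8781.4, 5917.5 and 5906.3 in control 1 to 4. The highest hypoxia array was thus less than the lowest control array, and hypoxia 4 was lowest of all. The mean was 1820 ± 677 in hypoxia and 7469 ± 1809 in control (SD, n = 4 each), a log2 change of -2.08 ± 0.26 (SE, limma adjusted p = 0.000103). Without hypoxia 1 it was -2.03 (limma adjusted p = 0.000244).

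The other Tfrc probe sets moved the same way by different amounts. Probe set 1422966_a_at gave 16.8, 77.5, 393.5 and 86 in hypoxia and 1453.9, 1277.2, 862.8 and 1041.3 in control. It fell 10.8-fold (limma adjusted p = 0.000591), but the hypoxia values spread widely, from hypoxia 1 at the bottom to hypoxia 3 at the top, and 3 of the 4 lay below 90.2, the mean signal a probe set needed to be tested. Its log2 change was -3.44, but -2.87 without hypoxia 1 and -4.09 without hypoxia 3, so its size rests on single arrays. Probe set 1422967_a_at gave 36.9 to 131.6 in hypoxia and 184.4 to 338.5 in control, a 2.95-fold fall (limma adjusted p = 0.00476). Its hypoxia mean of 79.7 lay below 90.2, so the size of this fall is uncertain too.

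The array also carries 3 quality probe sets that read the 3' end, the middle and the 5' end of the Tfrc transcript. They belong to the array's quality probe sets and stood outside the main test. At the 3' end the signals were 126, 184.3, 293 and 140.5 in hypoxia, against 1047.7, 919.9, 609.1 and 938.7 in control. At the 5' end they were 75.9, 90.1, 90.9 and 103.6 in hypoxia, against 363.9, 341, 246.1 and 244.4 in control. The groups did not overlap at either end, with log2 changes of -2.19 and -1.55. In the middle the range was 6 to 55.9 in hypoxia and 110.3 to 230.1 in control, a log2 difference of -2.39 that rests on hypoxia signals below the filter. Each of the 3 gave a two-sided exact permutation p of 0.0286 (n = 4 each), the smallest this design allows. In a fit that kept them, tried after the data were seen, the 3' and 5' sets passed (limma adjusted p = 6.37e-05 and 0.00047), and the middle one was too dim to enter. The 3' to 5' ratio of these Tfrc sets was 1.36 to 3.22 in hypoxia and 2.48 to 3.84 in control, with the lowest 3 in hypoxia. The 5' signals in hypoxia, at 75.9 to 103.6, lay around the filter signal of 90.2, so these ratios say little about broken RNA.

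**Figure D2:**
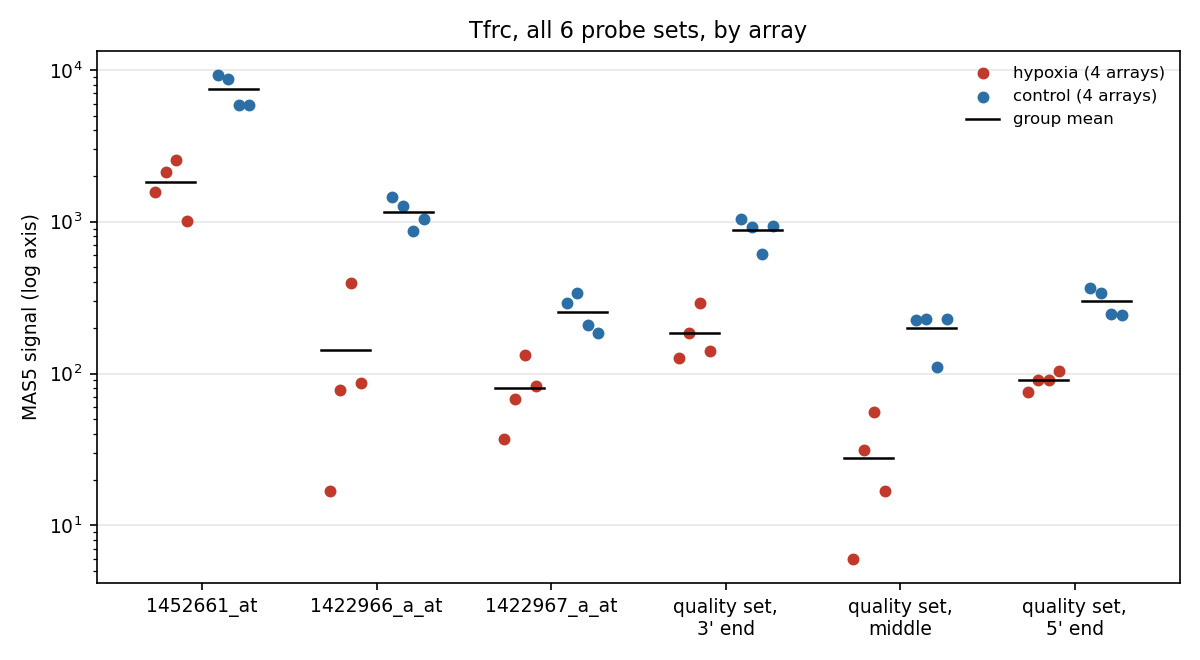
MAS5 signal (log axis) of the 6 Tfrc probe sets, 3 transcript sets and 3 array quality sets along the transcript, with a point per array (4 hypoxia, left, red; 4 control, right, blue) and a bar at the group mean. In all 6 sets every hypoxia array is below every control array, and at the 5' end 75.9 to 103.6 in hypoxia stands against 244.4 to 364 in control.

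Tfrc is known as a target of the hypoxia-inducible factors, and its promoter is shown here as background. It was chosen after the transcript was seen to be lower in the low-oxygen group. The part of these factors in that change was not tested, and the matches say nothing of its direction. The stretch is the 250 bases before the upstream RefSeq start (GRCm38.p6, chr16:32608646-32608895, plus strand), and capitals mark matches to the core of the hypoxia response element.
Tfrc upstream stretch: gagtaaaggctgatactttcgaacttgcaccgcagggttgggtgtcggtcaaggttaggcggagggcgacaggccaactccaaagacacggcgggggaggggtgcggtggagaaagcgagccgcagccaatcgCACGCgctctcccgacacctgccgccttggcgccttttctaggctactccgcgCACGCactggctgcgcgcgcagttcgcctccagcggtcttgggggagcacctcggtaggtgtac
The letters searched were ACGTG and GCGTG on both strands, and overlapping matches were counted. The 2 matches are GCGTG on the minus strand, printed as CACGC, and begin 117 and 64 bases before the start. GCGTG occurs in 28.2% of 32851 such stretches of all genes, and at least 2 matches to it occur in 8.63%. Either run of letters occurs in 38.6%. RefSeq gives Tfrc a further start, whose 250 bases (chr16:32608872-32609121) overlap only the end of those printed. They hold 3 matches that are not among those printed, 1 to ACGTG and 2 to GCGTG. Of 12 stretches for 6 members, 4 held a match: both of Tfrc, 1 of 2 for Fth1 and 1 of 4 for Steap3, which is near that share. These letters are not in the stretches of Aco1, Cp and Ireb2. Trf, Slc11a2, Slc40a1 and Heph were not searched. A match is a run of letters and says nothing of whether a factor binds there.

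Steap3 encodes an endosomal reductase that turns ferric into ferrous iron in erythroid cells of the mouse. Its 3 probe sets were dim, and 1 of them, 1423468_at, fell. That set gave 83.7, 94.3, 50.2 and 141.2 in hypoxia, against 180.4, 141.4, 201.4 and 241.7 in control, so that the groups nearly touched. The log2 change was -0.98 ± 0.32 (SE, limma adjusted p = 0.0377), but without hypoxia 1 the adjusted p was 0.0592, and the call held in only 8 of 18 alternatives. The others changed by -0.61 (limma adjusted p = 0.0865) and -0.71 (limma adjusted p = 0.127) without passing.

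Slc11a2 is the divalent metal transporter that pumps ferrous iron out of the endosome. Its transcripts have alternative 3' ends, one with and one without an iron-responsive stem-loop, and the annotation used does not say which probe set reads which. The probe sets disagreed. On the brightest, 1426441_at, the signals were 308.1, 755.3, 832.8 and 636 in hypoxia, against 471.4, 380.4, 394.3 and 339.2 in control, so that 3 hypoxia arrays were above all control arrays and hypoxia 1 was below them. Its change was 0.57 ± 0.27 (SE, limma adjusted p = 0.138). Without hypoxia 1 it was 0.88 and passed (limma adjusted p = 0.00331), as it did after quantile normalization (0.71, limma adjusted p = 0.0462) and with array weights (0.73, limma adjusted p = 0.0246).

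A second Slc11a2 probe set, 1417584_at, lay the other way. It gave 185.3, 186.5, 254.4 and 228.7 in hypoxia, against 345.1, 344.8, 265.4 and 327.5 in control, without overlap. Its change of -0.56 ± 0.20 (SE) missed the threshold (limma adjusted p = 0.0529). It passed in 5 alternatives: with the dimmest 60% of probe sets left out, with no intensity trend in the variance, with array weights, without control 3 and without hypoxia 3 (limma adjusted p from 0.0417 to 0.0495). With array weights both sets passed, in opposite directions. The other 2 sets, at -0.10 and -0.48, had intervals that spanned 0. No direction is given for the gene.

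**Figure D3:**
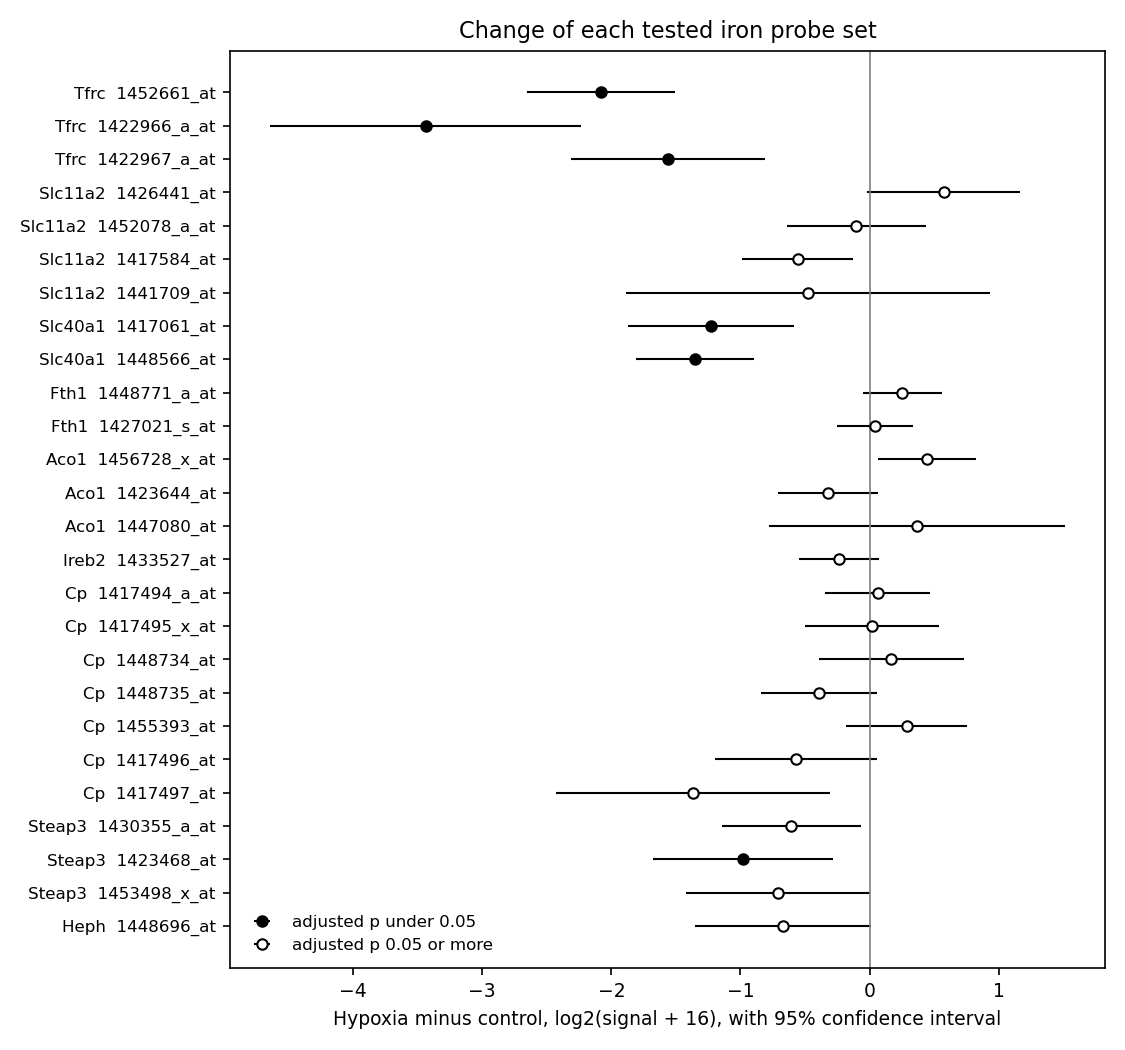
Change of each of the 26 tested member probe sets, hypoxia minus control in log2(signal + 16), with the 95% confidence interval of the limma fit; filled points passed an adjusted p of 0.05. The 6 filled points, of Tfrc, Slc40a1 and Steap3, are all below 0, and the probe sets of Slc11a2, Aco1 and Cp lie on both sides of it.

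Storage was read through Fth1, the ferritin heavy chain, which oxidises iron as it enters the ferritin shell. The genome holds many processed copies of Fth1, so its probe sets may read related sequences. On 1448771_a_at the signals were 59272.3, 47576.6, 42965.7 and 47645.2 in hypoxia, against 41263.4, 46637.5, 41293.7 and 36081.4 in control. The hypoxia mean of 49360 ± 6958 was above the control mean of 41320 ± 4310 (SD, n = 4 each), but the groups overlapped. The log2 change of 0.25 ± 0.14 (SE) did not pass (limma adjusted p = 0.206), and its 95% interval ran from -0.05 to 0.56, or 0.964-fold to 1.47-fold. The second set, 1427021_s_at, averaged 35100 ± 4785 in hypoxia and 34000 ± 3118 in control (SD, n = 4 each), a change of 0.04 ± 0.14 (SE, limma adjusted p = 0.859).

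The Fth1 result depended on the scaling. After quantile normalization 1448771_a_at changed by 0.55 ± 0.08 (SE) and passed (limma adjusted p = 0.000358), whereas 1427021_s_at, at 0.19, did not (limma adjusted p = 0.121). After median centring neither passed. Without hypoxia 1, the array with the highest Fth1 signal, the change of 1448771_a_at was 0.16 (limma adjusted p = 0.347). Among the transcript probe sets of its own array, 1448771_a_at ranked 7, 2, 1 and 4 in hypoxia, against 49, 40, 69 and 71 in control. Yet hypoxia 3, at rank 1, had a signal of 42965.7, below the 46637.5 of control 2 at rank 40. The second set, 1427021_s_at, ranked 42 to 77 in hypoxia and 75 to 130 in control. Ranks of single probe sets are not transcript amounts, and signals this bright can saturate the scanner, which compresses differences.

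**Figure D4:**
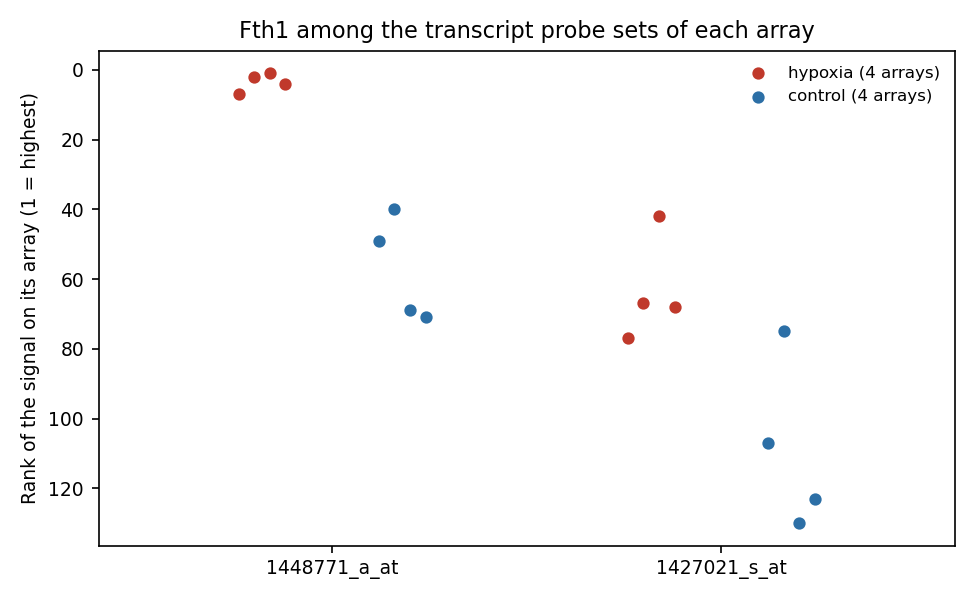
Rank of the signal of the 2 Fth1 probe sets among the transcript probe sets of each array (1 is the highest), with 4 hypoxia arrays (left, red) and 4 control arrays (right, blue) per set. For 1448771_a_at the hypoxia ranks of 1 to 7 stand apart from the control ranks of 40 to 71, although the signals themselves overlap between the groups. For 1427021_s_at the ranks overlap by 1 hypoxia array, at 77, and 1 control array, at 75.

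Export was read through ferroportin and the copper oxidases that load exported iron onto transferrin. Slc40a1, ferroportin, gave 1852.2, 811.3, 726.3 and 1924.9 on 1417061_at in hypoxia, against 2621.3, 2430.2, 3187.5 and 3229.5 in control. The hypoxia arrays formed a lower pair, 2 and 3, and a higher pair, 1 and 4, and all were under control. The means were 1329 ± 648 in hypoxia and 2867 ± 402 in control (SD, n = 4 each), a change of -1.23 ± 0.30 (SE, limma adjusted p = 0.00771). The second set, 1448566_at, gave 385.1, 293.5, 406.2 and 626.8 in hypoxia, against 1095.4, 1003.4, 1207.8 and 1016.4 in control, again with no overlap. Its change was -1.35 ± 0.21 (SE, limma adjusted p = 0.000462). Both sets passed in all alternatives in which they were tested, and without hypoxia 1 they changed by -1.43 and -1.32.

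Ferroportin is abundant in macrophages, so their markers are given beside it. Of 7 tested macrophage markers, Csf1r and Adgre1, surface proteins of the lineage, fell 1.85-fold and 1.80-fold, Cd68, a lysosomal protein, rose 15.2-fold, and 4 did not pass. A second Csf1r set, at -0.73, also passed (limma adjusted p = 0.00378), and another, at 0.02, did not (limma adjusted p = 0.954). The summed marker signal was 8987 to 15720 in hypoxia and 9735 to 14450 in control, and no marker was at 0. The part of these cells in the Slc40a1 result was not tested, and in whole muscle fewer cells of a type and less RNA per cell cannot be told apart. Tfrc is abundant in red cell precursors. The 2 tested red cell markers, Alas2 (0.17) and Slc4a1 (0.29), did not pass, and their summed signal was 845 to 1230 in hypoxia and 622 to 1622 in control. Of 6 fibroblast markers all fell, with sums of 13990 to 18400 in hypoxia and 48100 to 53470 in control. Of 6 endothelial markers none passed, with sums of 2734 to 5611 in hypoxia and 3435 to 6507 in control, but 2 fell without hypoxia 1.

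Cp encodes ceruloplasmin, the copper oxidase of plasma, which also exists in a membrane-anchored form. It had 8 probe sets, of which 7 were tested and none passed. On the brightest, 1417494_a_at, the signals were 1048.4, 799, 1097.8 and 1154.1 in hypoxia, against 797.3, 894.3, 1313.6 and 952.4 in control, fully interleaved. The change was 0.06 ± 0.19 (SE, limma adjusted p = 0.845), with a 95% interval from -0.35 to 0.47. The 7 tested sets ran from -1.37 to 0.29. The lowest, 1417497_at, was dim and rested on 28.6, 38.9 and 54.4 in 3 hypoxia arrays beside 202.9 in hypoxia 3, against 125.4 to 326.2 in control (limma adjusted p = 0.0534). It passed with array weights (limma adjusted p = 0.0487) and with a block for the replicate number (limma adjusted p = 0.0214). Without hypoxia 3 it was at -1.86 and passed too (limma adjusted p = 0.00518). The untested set, 1441326_at, had 3 to 12.8 in hypoxia and 5.5 to 83.7 in control.

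Heph, hephaestin, is the membrane oxidase best known from the gut. Its single set gave 111.2, 75.3, 77.5 and 111 in hypoxia, against 140.3, 119.9, 255.4 and 137.6 in control. The groups did not overlap, but the signals were dim, and the change of -0.67 ± 0.32 (SE) did not pass (limma adjusted p = 0.135).

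The iron regulatory proteins are encoded by Aco1, which is an aconitase when it carries an iron-sulfur cluster, and Ireb2, which is broken down when iron is plentiful. Ireb2 gave 983.5, 1227.1, 1274.2 and 1102.3 in hypoxia, against 1330.5, 1338.9, 1355.3 and 1368.4 in control. The control arrays were nearly alike and all above the hypoxia arrays. The difference was small, at -0.24 ± 0.14 (SE, limma adjusted p = 0.241), with a 95% interval from -0.55 to 0.07. The 3 Aco1 sets pointed both ways. The brightest, 1456728_x_at, which can bind related transcripts, gave 2252.7, 2112.3, 1763.6 and 2052.6 in hypoxia, against 1567, 1078.7, 1701.5 and 1720.3 in control (0.45 ± 0.17, SE, limma adjusted p = 0.0742). The next, 1423644_at, gave 287.9 to 410 in hypoxia and 410.7 to 515.6 in control (-0.32 ± 0.18, SE, limma adjusted p = 0.203). Neither overlapped between the groups and neither passed. The third, 1447080_at, was dim and changed by 0.37 without passing (limma adjusted p = 0.652). In all, 11 of the 26 tested member sets did not overlap, against 30.1% of all probe sets tested.

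Other genes of iron and heme were read through the brightest tested probe set of each. By this measure 31.9% of 13258 genes passed, with 17.8% lower and 14% higher. Among 13 other genes of iron uptake and reduction, 2 rose and 3 fell, or 2 fell after either rescaling. Slc39a14, a metal transporter that takes up iron not bound to transferrin, rose 5.95-fold, with 2881 ± 732 in hypoxia and 465 ± 88.6 in control (SD, n = 4 each, limma adjusted p = 3.27e-06). Its second set gave 0.76 without passing (limma adjusted p = 0.0592). Lcn2, which binds bacterial iron carriers, rose to 2263.9 to 5718.5 in hypoxia, against 13.5 to 116.7 in control (limma adjusted p = 1.46e-06). The control mean of 45.7 lies below 90.2, so no size is given for the rise. Neutrophils store its protein, and 3 of 5 tested neutrophil markers rose too, with sums of 3197 to 5954 in hypoxia and 445 to 1001 in control. Their part in the Lcn2 result was not tested. Hfe, a partner of the transferrin receptor, fell 2.34-fold, with 799 ± 58.1 in hypoxia and 1896 ± 186 in control (SD, n = 4 each). A second Hfe set, at -0.75, did not pass (limma adjusted p = 0.0572). Slc22a17, a receptor for lipocalin, fell 1.77-fold, close to the threshold (limma adjusted p = 0.0455). Lrp1, a receptor for many ligands including the heme carrier hemopexin, fell 2.12-fold, but a second set pointed the other way at 0.57 without passing, so it is uncertain.

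Of 5 tested genes of storage and release, Pcbp1, a chaperone that delivers iron to ferritin, rose 1.51-fold. None fell, although 1 did without hypoxia 1. Among all genes 17.8% were lower and 14% higher. Pcbp2, a related chaperone, changed by 0.31 without passing, while its second set rose by 0.89 (limma adjusted p = 0.00143) and the remaining one, at 0.51, did not pass. Hephl1, a hephaestin-like oxidase (-0.71), and Fbxl5, an iron-sensing ubiquitin ligase subunit (-0.36), did not pass. Ncoa4, which carries ferritin to the lysosome, changed by -0.19 without passing (limma adjusted p = 0.305), while its second set fell by 0.65 on the log2 scale (limma adjusted p = 0.00599). The light chain gene Ftl1 has only shared probe sets. Of 9 genes of receptor endocytosis and recycling, 3 rose and none fell. Rab5a, the small GTPase of early endosomes, rose 3.25-fold, with 13750 ± 4226 in hypoxia and 4088 ± 88.6 in control (SD, n = 4 each). Rab11a, of recycling endosomes, rose 1.51-fold, while its second set, at 0.14, did not pass (limma adjusted p = 0.582), so it is uncertain. Vps35, a retromer subunit, rose 1.53-fold, with a dim second set at -0.65 that did not pass, so it is uncertain. Ap2m1, a clathrin adaptor subunit, changed by 0.25 without passing.

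The hepcidin and BMP axis sets systemic iron through the liver hormone hepcidin. In it 5 of 16 tested genes fell and 2 rose, where 17.8% of all genes were lower and 14% higher. Only 4 fell without hypoxia 1, and 4 after either rescaling. Hjv, hemojuvelin, a BMP co-receptor made by muscle and liver, fell 2.56-fold, with 5603 ± 542 in hypoxia and 14360 ± 1448 in control (SD, n = 4 each, limma adjusted p = 1.50e-05). Its second set fell by 1.84 on the log2 scale. Neo1, neogenin, which binds hemojuvelin, fell 4.27-fold, with a second set at -2.63 that also passed. Of its 2 other sets, at -0.82 and 0.68, neither passed, and the second of these leaves the change uncertain. The BMP receptor Acvr1 fell 2.09-fold. A second Acvr1 set, at -0.65, also passed, and a further one, at -0.69, did not. Bmp2 fell 2.73-fold, and Tmprss6, a protease that cleaves hemojuvelin, fell 1.51-fold, close to the threshold (limma adjusted p = 0.0432). The 2 that rose were Smad1, a BMP signal transducer, at 0.74, and Hamp2, a hepcidin-like gene of the mouse, at 2.12 on a probe set that can bind related transcripts. Hamp itself changed by 0.42 without passing, while its second set rose by 0.70.

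**Figure D5:**
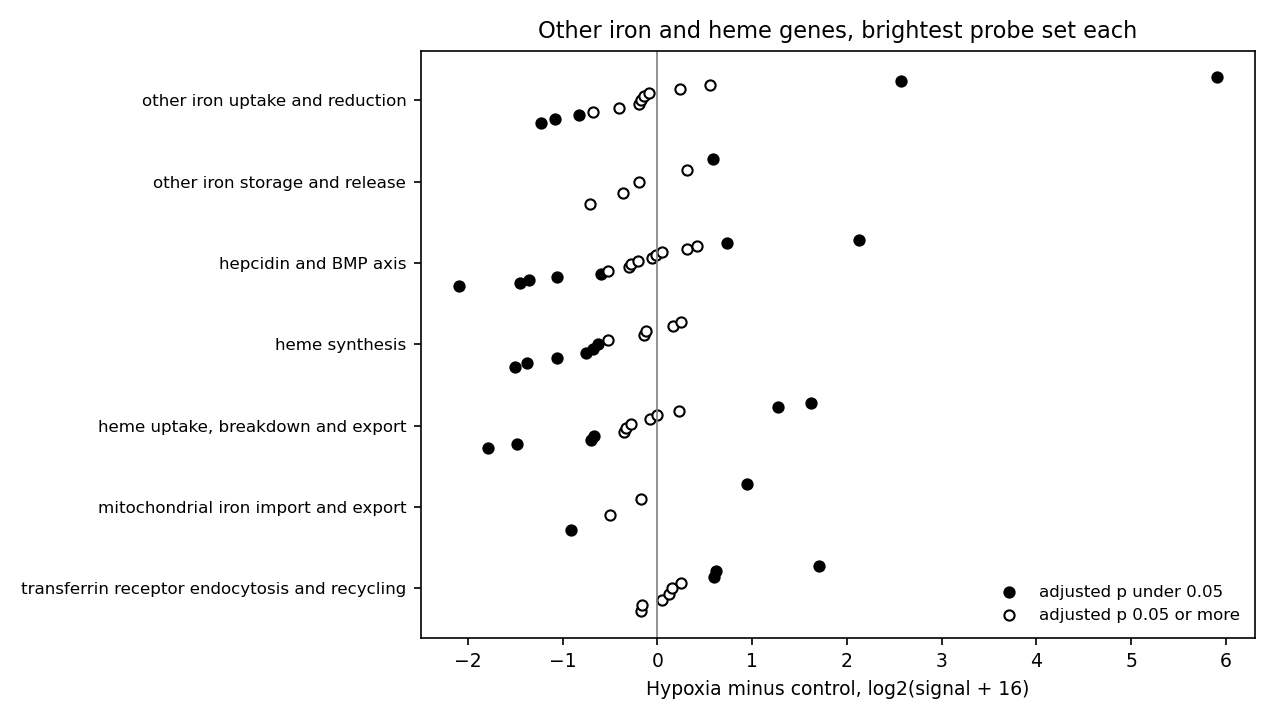
Change of each tested gene in 7 further lists of iron and heme genes, hypoxia minus control in log2(signal + 16), with 1 point per gene and filled points for an adjusted p under 0.05. In the heme synthesis list 6 filled points lie below 0 and none above, and in the endocytosis list 3 lie above and none below. Among all genes 17.8% were lower and 14% higher.

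Heme synthesis is a main use of iron. Here 6 of 11 tested genes fell and none rose, where 17.8% of all genes were lower and 14% higher. The list median was -0.63, against -0.04 for all genes. Alas1, the rate-limiting enzyme outside red cells, fell 2.60-fold, with 1955 ± 424 in hypoxia and 5058 ± 629 in control (SD, n = 4 each, limma adjusted p = 7.17e-05), while its second set, at -0.54, did not pass. Alad, the next enzyme of the pathway, fell 2.84-fold. Urod, Ppox, Uros and Cpox, which carry out later steps, fell 1.69-fold, 2.09-fold, 1.61-fold and 1.54-fold. The second sets of Urod, at -1.34, and Cpox, at -1.05, also passed, and that of Ppox, at -1.07, did not. Fech, which inserts iron into the ring, changed by -0.12 without passing. The count was again 6 lower and 0 higher without hypoxia 1, and 5 lower after either rescaling.

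Of 12 genes of heme uptake, breakdown and export, 4 fell and 2 rose (3 fell without hypoxia 1, and 3 after quantile normalization). Among all genes 17.8% were lower and 14% higher. Hmox1, the inducible heme oxygenase, which frees iron from heme, rose 3.08-fold, with 484 ± 133 in hypoxia and 157 ± 69.9 in control (SD, n = 4 each). Hmox2, the constitutive form, fell 1.59-fold. Blvra, which reduces the product biliverdin, fell 1.62-fold, close to the threshold (limma adjusted p = 0.0462). Abcg2, an exporter with heme among its substrates, rose 2.42-fold. Hp, the hemoglobin-binding haptoglobin, and Hebp1, a heme-binding protein, fell 3.46-fold and 2.80-fold. Hp is also made by adipocytes, and the 3 tested adipocyte markers fell as well, with sums of 968 to 3671 in hypoxia and 3033 to 18820 in control. Their part in the Hp result was not tested. At the mitochondrion, 1 of 4 tested genes rose and 1 fell. Slc25a28, an inner membrane iron importer, rose 1.92-fold, and Abcb8, a transporter of the inner membrane, fell 1.88-fold. Abcb10 (-0.50), its relative, and Slc25a37 (-0.17), the other iron importer, did not pass.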

How the data were processed

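The deposited table holds 1 MAS5 signal intensity per probe set and array on a linear scale. The algorithm's name comes from the submitters' processing notes. Its version is not given in the sources used here. The 2% trimmed mean was 500 on each array, so the authors' scaling was kept. The median signal was 128 to 165. No 2 arrays held identical values. The number of arrays limits the precision.

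Of 45101 probe sets, 64 quality probe sets were left out. So were the 40% of the others with the lowest mean log2(signal + 16) over all arrays. Turned back into a signal, this put the filter at 90.2. Gene names came from the platform annotation, updated by gene ID to GRCm38.p6: 34958 probe sets had 1 symbol, 932 several and 9211 none. Hypoxia was compared with control on log2(signal + 16) with limma 3.58.1 in R 4.3.3 (intensity trend, two-sided, no block, Benjamini-Hochberg over all 27023 tested). Sequences are from RefSeq, GRCm38.p6. Members and lists, with markers of muscle fibres, macrophages, red cells, neutrophils, fibroblasts, endothelium, Schwann cells, adipocytes and hepatocytes, were chosen with earlier results of these data known. All member probe sets are described. From each other list the 4 genes with the smallest p are named, and any direction held by 5 or fewer. Uros, Cpox, Fech, Ncoa4, Hamp and the named macrophage and red cell markers were singled out after their values were seen. The procedure was tested on simulated data. Alternatives were 2 other scalings, other pseudocounts, filters, units and variance models, weighted arrays, a block for the replicate number, and single arrays left out.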

Additional observations from a re-analysis of the deposited data

Results flagged for a closer look

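Among 60 groups of 4 arrays (30 member probe sets in each of 2 groups), 4 held an array far from its neighbours by Dixon's gap test, which chance does in about 1 in 20 groups. In 3 of them the array was control 3. It had 110.3 on the middle Tfrc quality probe set, against 224.5 to 230.1 in the other control arrays. It had 22.7 on the Slc11a2 set 1441709_at, against 191.8 to 232.2, and 17.7 on the Aco1 set 1447080_at, against 143.7 to 191.9. In hypoxia, array 1 had 308.3 on the Cp set 1455393_at, against 289.2 to 291.8, a small gap within a narrow group.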

How the results depend on the processing

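The 3 tested Tfrc and 2 Slc40a1 probe sets kept their direction and passed in all alternatives in which they were tested. Steap3 1423468_at passed in 8 of 18, with adjusted p from 0.0212 to 0.113, and was lost after both rescalings, with no filter, with the block, and without control 1, 3 or 4 or hypoxia 1, 2 or 3. The count of member sets that rose was 0, but 2 after quantile normalization (Fth1 1448771_a_at and Slc11a2 1426441_at), 1 with array weights and 0 to 1 when single arrays were left out; 1 was reached without hypoxia 1. The count that fell was 6, 5 after either rescaling or either other filter, 7 with no intensity trend, 8 with array weights, 5 to 7 without single arrays, and 2 with 1 probe set per gene, where 1959 genes rose and 2489 fell because fewer units were tested. Calls gained were Slc11a2 1417584_at in 5 alternatives, Cp 1417497_at with array weights, with the block and without hypoxia 3, and Steap3 1430355_a_at without hypoxia 4 (limma adjusted p = 0.0497). Of calls over all sets 43.2% were higher, 50% after quantile normalization and 50.2% after median centring, and the median change was -0.04, 0.04 and 0.04. Reversals touched values that had not passed. Slc11a2 1452078_a_at was 0.014 after quantile normalization and -0.26 to 0.033 without single arrays, and 1441709_at -1.11 to 0.0053. Fth1 1427021_s_at was -0.005 with array weights and -0.049 to 0.10 without single arrays, and Aco1 1447080_at -0.25 to 0.63. Cp 1417494_a_at ran from -0.032 to 0.20, 1417495_x_at from -0.16 to 0.18 and 1448734_at from -0.022 to 0.34. The cause was not tested. The replicate numbers did not pair the arrays (deviation correlations from -0.07 to 0.01). With the replicate number as a block, 6 member sets fell and 0 rose, with Cp 1417497_at (limma adjusted p = 0.0214) in place of Steap3 1423468_at (limma adjusted p = 0.0564), and over all sets 2952 rose and 3930 fell. Signals near the filter limit Steap3, Heph and the dim sets of Cp and Slc11a2, and very bright signals limit Fth1.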

Other observations

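The probe set shared by Trf and Srprb, which cannot be assigned to either gene, averaged 599 ± 266 in hypoxia and 1724 ± 839 in control (SD, n = 4 each), with 299.3 to 858.8 in hypoxia and 860.9 to 2802.6 in control. It changed by -1.49 ± 0.37 (SE, limma adjusted p = 0.00971).

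Of the marker lists not set beside a gene above, 1 of 4 tested Schwann cell markers fell, with sums of 4384 to 6938 in hypoxia and 6402 to 9020 in control. The 1 tested hepatocyte marker, Alb, did not pass and gave 78.1 to 226.6 in hypoxia and 133.6 to 284.7 in control.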
